A study of Rattus norvegicus with 18 samples.

Results

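The Wnt pathway was followed at the transcript level in primary rat oligodendrocyte progenitors (OLPs) as they differentiated with or without PD169316, a small molecule inhibitor of the p38α and p38β kinases. Members were the array probes whose annotated gene symbol starts with Wnt, Fzd, Dkk, Dvl, Axin, Sfrp (other than *Sfrp2*) or Tcf7, together with *Lef1*, *Lrp5*, *Lrp6*, *Ctnnb1*, *Apc* and *Wif1*. The rule used symbols alone and found 41 of 22523 probes, for 40 of 13337 named genes. *Fzd4* was the gene with a pair of probes.

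OLPs were isolated from newborn rat brain (Sprague-Dawley strain) and began to differentiate at day 0, when the mitogens PDGF-AA and bFGF were withdrawn. There were 18 Illumina RatRef-12 arrays in 6 groups of 3: day 0, day 1 PD169316, day 1 control, day 2 PD169316, day 2 control and day 4 PD169316, where control cultures received the vehicle DMSO. No day 4 control is among the labels, so day 4 was compared with day 0 and with day 1 PD169316. The labels name no transgene or mutation, and the methods describe the cultures as mostly but not wholly OLPs at day 0. The labels do not say whether the 3 samples of a group were separate cultures, so the spread behind the p-values may be partly or wholly technical.

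Wnt proteins are secreted lipid-modified ligands. They bind Frizzled receptors together with the co-receptors LRP5 or LRP6, and the signal is relayed by Dishevelled proteins. In the canonical branch this disables the complex of Axin, APC and kinases that degrades β-catenin, which then enters the nucleus and activates genes with transcription factors of the TCF/LEF family. Secreted inhibitors of the Dickkopf, SFRP and WIF families act outside the cell. In the oligodendrocyte lineage, Wnt/β-catenin signalling is best known for its influence on the timing of progenitor differentiation.

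Values are log2 intensities after background correction and quantile normalization. A probe counted as detected on an array when its detection p, a comparison with negative control beads, was under 0.01. Between 9789 and 10773 probes were detected per array. A probe was tested when it was detected on all 3 arrays of at least 1 group, and passed at an adjusted p under 0.05 (limma, 1 fit to the 18 arrays, Benjamini-Hochberg over the 10574 probes tested). Error is given as the SD over the 3 arrays of a group or as the model's standard error (SE) of a difference. Bead counts also limit precision: the median number of beads over the 18 arrays lay between 30 and 51 from one member probe to another, and the median bead standard error between 2.32% and 5.65% of the intensity.

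The libraries labelled day 2 PD169316 1 and day 2 control 3 stood apart. Across probes, the correlation of day 2 PD169316 1 was 0.980 to 0.983 with the same label and reached 0.994 with a day 2 control array, and that of day 2 control 3 was 0.986 to 0.987 with the same label and reached 0.997 with a PD169316 array. All day 2 libraries were used under their labels, and results that rest on them are also given without this pair. The pair was picked from these same intensities for lying with the other label. Fits without it favour a split of the day 2 groups and a smaller spread, so their p-values and counts are descriptions. The other libraries' tests also depend on the pair, because the model shares 1 estimate of the spread between groups.

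The labelled cell type was checked against marker lists. Of 9 oligodendrocyte markers tested, 9 rose between day 1 and day 4 of PD169316 (19.4% of all probes), and 8 rose in day 2 control cultures relative to day 0 (20.6%). Of 7 progenitor markers, 7 fell in day 2 control cultures relative to day 0 (21.6% of all probes). Between day 1 and day 4 of PD169316, 2 progenitor markers rose, 1 fell and 4 did not pass. Astrocyte, neuron and microglia markers were also present, with no measured marker of these lists undetected throughout. The pericyte marker *Rgs5* was on no array. In bulk RNA of this kind, fewer cells of a type and less RNA per cell cannot be told apart.

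A minority of the pathway's genes gave a signal. Of the 41 member probes, 18 were tested, or 43.9%, against 56.0% of all probes that carry a symbol. A further 8 were detected on 1 to 4 scattered arrays and 15 on none. Over the 23 probes not tested, 16 of 414 probe and array pairs were detected.

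Most ligand genes gave no signal above background. Of 17 Wnt ligand probes, those for *Wnt4*, *Wnt5a*, *Wnt7b*, *Wnt10b* and *Wnt16* were tested. *Wnt1*, *Wnt3*, *Wnt3a*, *Wnt8a*, *Wnt9a*, *Wnt9b*, *Wnt10a* and *Wnt11* were on no array, and *Wnt5b*, *Wnt6*, *Wnt7a* and *Wnt8b* were on 1 to 3 arrays each. Several ligand genes lie next to each other in the RefSeq gene order, as 4 neighbouring pairs: *Wnt3a* and *Wnt9a*, *Wnt9b* and *Wnt3*, *Wnt6* and *Wnt10a*, and *Wnt10b* and *Wnt1*. Of these pairs' genes *Wnt10b* was tested, and the others were on at most 2 arrays.

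On the receptor side, *Fzd1*, *Fzd8* and *Fzd9* and both co-receptor genes were detected on all 18 arrays. *Fzd5* was on none, and the *Fzd4* probes were on 4 and 0 arrays. Among the 7 inhibitor probes, *Dkk3* was on all arrays and *Wif1* was missed on 1 array, while *Dkk1*, the archetypal LRP-binding antagonist, *Dkkl1*, *Sfrp4* and *Sfrp5* were on none and *Dkk2* was on 2 arrays of day 4 PD169316. *Axin1*, *Ctnnb1* and *Dvl1* were on all arrays, *Apc* was on 1 and *Dvl3* on none. Of the nuclear factors, *Tcf7l1* and *Tcf7l2* were on all arrays and *Lef1* was on 1 array of day 2 PD169316, with log2 intensities of 4.78 to 5.64 over all arrays. A probe that is not detected says only that its signal was not above the control beads on this array.

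**Figure D1:**
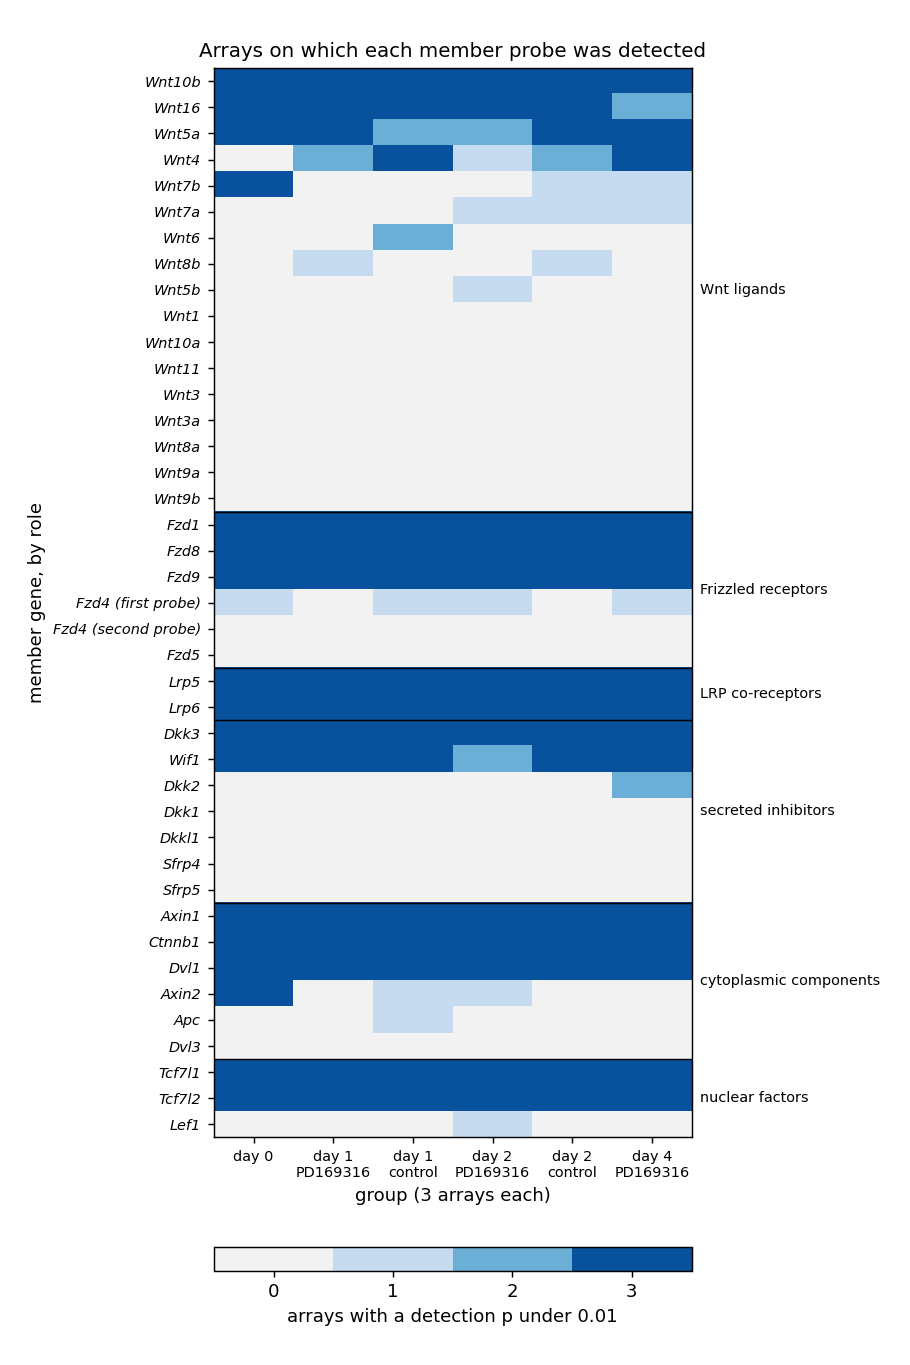
Number of arrays (0 to 3) on which each of the 41 member probes had a detection p under 0.01, by group along the x axis and by gene and role down the y axis. 12 probes were detected on all 18 arrays and 15 on none, and *Wnt7b* and *Axin2* were detected on all 3 arrays only at day 0.

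After 1 day, a nuclear factor and a ligand passed between PD169316 and control cultures, in opposite directions. *Tcf7l2*, which encodes a TCF factor that partners β-catenin, was lower with PD169316 by 0.94 on the log2 scale, and *Wnt5a*, a ligand best known for signalling without β-catenin, was higher by 0.74. They were the 2 of 18 tested members to pass, or 11.1%, against 11.1% of all probes, so the count is no result about the members. The single increase compares with 6.59% and the single decrease with 4.48% of all probes. PD169316 and control arrays did not overlap for 12 of the 18 members, against 41.5% of all probes.

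*Tcf7l2* stood at 7.69, 7.74 and 8.12 on the day 1 PD169316 arrays, against 8.98, 8.60 and 8.78 on the day 1 control arrays. Every PD169316 array was below every control array. The group means were 7.85 ± 0.23 with PD169316 and 8.78 ± 0.19 in controls (SD, n = 3 each), a 0.52-fold level (SE of the log2 difference 0.22, 95% confidence interval -1.40 to -0.47, limma adjusted p = 0.011). Day 0 arrays lay at 8.24, 7.78 and 8.13, so the PD169316 cultures were near the day 0 level. Day 1 PD169316 cultures did not pass against day 0, and day 1 control cultures were higher than day 0 by 0.73 (SE 0.22, adjusted p = 0.023). The *Tcf7l2* difference from control missed the threshold without day 1 PD169316 1 (adjusted p = 0.053) or without day 1 control 1 (adjusted p = 0.057). The rise in control cultures missed it on the deposited values (adjusted p = 0.24) and without day 0 2 (0.098), day 1 control 1 (0.078) or day 1 control 3 (0.058).

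At day 2 the *Tcf7l2* values of both conditions overlapped. Day 2 PD169316 arrays were at 8.44, 7.89 and 7.80 and day 2 control arrays at 8.12, 8.17 and 7.91. By day 4 of PD169316 the values were 8.23, 7.50 and 8.40. The day 2 difference of -0.03 had a 95% confidence interval of -0.49 to 0.44, and the change in the inhibitor's effect between the days, 0.91 (SE 0.31), did not pass (limma adjusted p = 0.13).

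*Wnt5a* was at 6.61, 6.86 and 6.32 on the day 1 PD169316 arrays, against 6.04, 5.44 and 6.08 on the day 1 control arrays, the second of which was not detected. All 3 PD169316 values were above all 3 control values. The means were 6.59 ± 0.27 with PD169316 and 5.86 ± 0.36 in controls (SD, n = 3 each; SE of the difference 0.23, 95% confidence interval 0.26 to 1.22, limma adjusted p = 0.048). This call sits at the threshold: it was lost on the deposited values (adjusted p = 0.45), with no filter on dim probes (0.084) and on leaving out any of 12 of the 18 arrays, where the adjusted p reached 0.19 without day 1 control 2. Leaving out day 1 PD169316 2 gave 0.18, and day 1 PD169316 1 gave 0.12. The other 9 of these arrays, 3 of day 0, 2 of day 1 control, 2 of day 2 control and 2 of day 4 PD169316, gave 0.053 to 0.069.

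The remaining 16 members did not pass at day 1. *Fzd9* came nearest (6.94 ± 0.10 with PD169316, 7.29 ± 0.15 in controls, difference -0.35, adjusted p = 0.099), followed by *Fzd1* (7.92 ± 0.03 with PD169316, 7.67 ± 0.06 in controls, difference 0.25, adjusted p = 0.12). *Fzd8*, whose 3 replicates lay very close to each other at day 1, was at 10.70, 10.71 and 10.70 with PD169316 and at 11.08, 11.06 and 11.07 in controls. Its difference of -0.36 had a model SE of 0.20 and an adjusted p of 0.28. The model shares its spread with the day 2 libraries, and with only the day 1 arrays in the fit the adjusted p was 0.0051. For *Axin1*, *Ctnnb1*, *Dvl1* and *Wnt10b* the difference lay between -0.05 and 0.05, with 95% confidence intervals within -0.39 and 0.39.

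Without the pair of day 2 libraries, 8 of the 18 members passed at day 1, against 23.3% of all probes. *Wnt4*, *Fzd8*, *Fzd9* and *Axin2* were then lower with PD169316 and *Fzd1* and *Tcf7l1* higher, in addition to *Tcf7l2* and *Wnt5a*. Their differences did not change, since the day 1 arrays are the same. *Wnt4* was tested partly through day 1 control, its higher group here, so it is counted as a description and carries no p. For the others adjusted p ran from 0.0044 for *Tcf7l2* to 0.0495 for *Axin2*. *Axin2* was detected on 1 of the 3 day 1 control arrays and on 0 of the 3 day 1 PD169316 arrays, so its difference lies at the background. With only the day 1 arrays in the fit 8 members passed (21.4% of all probes), and without all day 2 arrays 6 (20.8%). The counts were 0 without day 1 PD169316 1 (7.24% of all probes) or day 1 control 1 (7.04%). They were 1 on leaving out any array of day 0, day 1 PD169316 2, day 1 control 2, day 1 control 3, day 2 control 2 or day 4 PD169316 1 (6.86% to 10.8%).

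**Figure D2:**
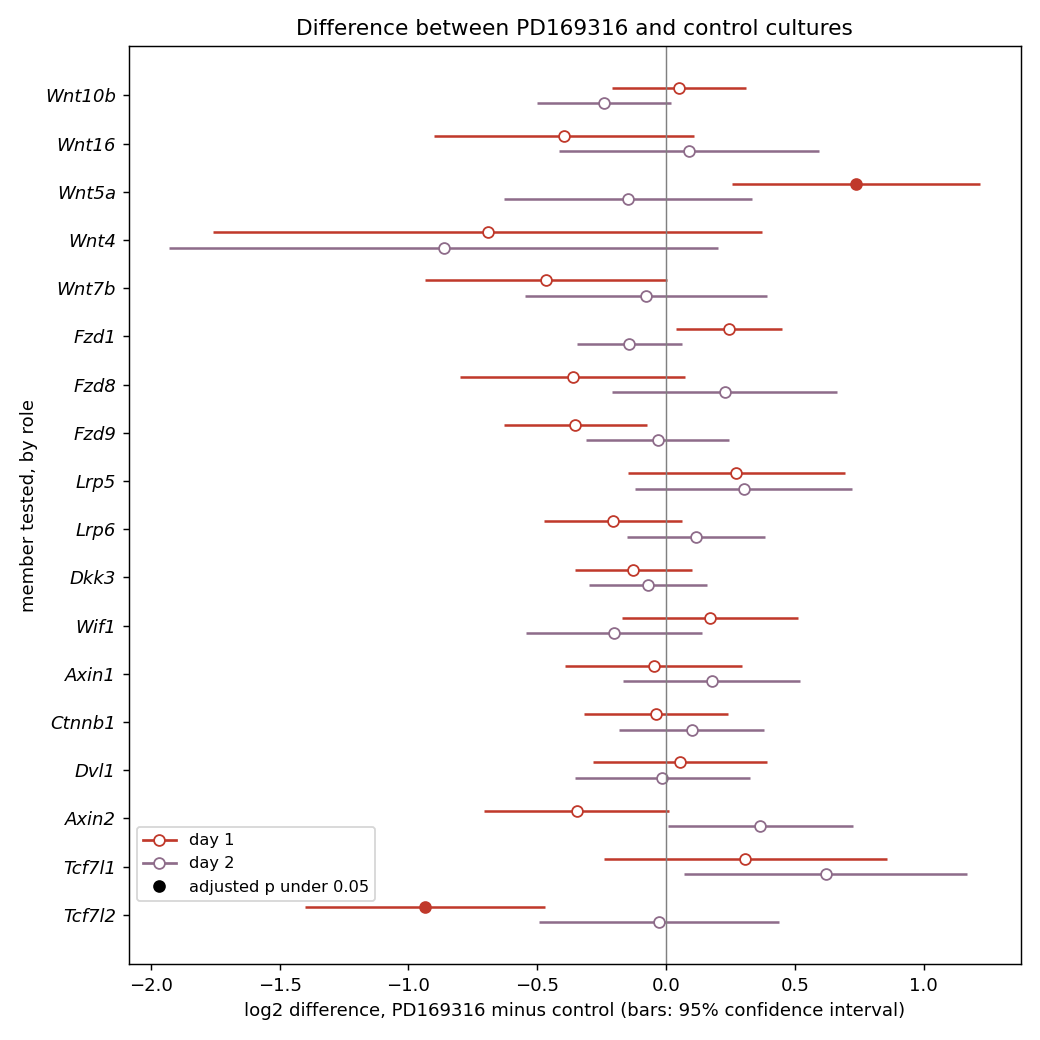
Difference in log2 intensity between PD169316 and control cultures (x axis) for each of the 18 tested members (y axis, by role), at day 1 (red) and day 2 (purple), with 95% confidence intervals from the limma model, n = 3 arrays per group. Filled points, *Wnt5a* and *Tcf7l2* at day 1, passed at an adjusted p under 0.05, and no point at day 2 did.

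Lineage markers moved in the same comparison. The summed normalized intensity of 9 oligodendrocyte markers was 43987 to 45543 on the day 1 PD169316 arrays and 60529 to 63027 on the day 1 control arrays, and that of 7 progenitor markers 48502 to 51268 with PD169316 and 58593 to 61916 in controls. For 9 astrocyte markers the sums were 32171 to 34127 with PD169316 and 42425 to 44984 in controls, and for 9 neuron markers 10486 to 11189 with PD169316 and 8455 to 8951 in controls. The microglial sums of 8 markers overlapped (10913 to 13706 with PD169316, 11130 to 12028 in controls), as did those of 8 vascular and fibroblast markers (1026 to 1368 with PD169316, 889 to 1381 in controls). By single markers, 2 of 9 oligodendrocyte, 4 of 7 progenitor and 1 of 9 astrocyte markers passed as lower (4.48% of all probes) and 1 of 9 neuron markers as higher (6.59%). The part of these differences in the *Tcf7l2* and *Wnt5a* results was not tested.

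At day 2 no member passed limma's test between PD169316 and control cultures, and neither did any of the 10574 probes (0%). An unadjusted p under 0.05 was reached by 2 members, *Tcf7l1* and *Axin2*, against 4.44% of all probes. The 2 groups did not overlap for 1 member, *Wnt16*, against 6.34% of all probes: it was at 7.87, 7.80 and 7.81 with PD169316 and at 7.79, 7.68 and 7.75 in controls (difference 0.09, 95% confidence interval -0.42 to 0.59). The effect of PD169316 did not pass as different between the days for any member, against 3.85% of all probes, and 4 members had an unadjusted p under 0.05 in that test (17.5% of all probes). The lowest adjusted p was that of *Axin2*, 0.12, a probe not detected on most of these arrays.

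Several members split the day 2 arrays across the labels. *Wnt4* was at 7.16, 5.18 and 5.27 on the day 2 PD169316 arrays, against 7.40, 7.43 and 5.37 on the day 2 control arrays, and the 3 low values were not detected. *Tcf7l1* was at 6.89, 7.98 and 7.86 with PD169316 and at 6.59, 6.68 and 7.61 in controls. For *Fzd8* the values were 10.004, 10.85 and 10.70 with PD169316, against 10.12, 10.03 and 10.73 in controls. In each gene PD169316 1 lay with controls 1 and 2, and control 3 lay with PD169316 2 and 3.

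Without that pair of libraries, which was picked for crossing the labels, 6 of the 18 members passed at day 2, against 23.6% of all probes. Only 2 arrays per day 2 group remain and the selection favours a difference, so the adjusted p-values here are descriptions. *Tcf7l1* (1.29, adjusted p = 5.3e-06), *Fzd8* (0.70, adjusted p = 0.0026), *Lrp5* (0.67, adjusted p = 0.016) and *Axin2* (adjusted p = 0.0035, not detected on the controls or on day 2 PD169316 3) were higher with PD169316. *Wnt4* (adjusted p = 4.2e-06, not detected on the 2 remaining PD169316 arrays) and *Fzd1* (-0.30, adjusted p = 0.030) were lower. The effect of PD169316 then passed as different between the days for 5 members, against 15.4% of all probes: *Tcf7l1*, *Wnt4*, *Fzd8*, *Axin2* and *Fzd1*. Leaving out a single library of the pair, day 2 PD169316 1 or day 2 control 3, gave 1 such member, *Axin2* (adjusted p = 0.026 and 0.043). Most day 1 and day 2 arrays did not detect *Axin2*, so its calls for PD169316 mostly compare values at the background.

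In every group after mitogen withdrawal, the means of *Wnt7b* and *Wnt5a* were below day 0 and those of *Wnt16* and *Wnt4* above it. Not all of these differences passed, and *Wnt16* at day 4 of PD169316 overlapped day 0. Comparisons with day 0 share its 3 arrays, so they are given side by side and were not set against each other. *Wnt7b* and *Axin2* were tested only because they were detected at day 0, where they were highest, so their differences from day 0 are a description and carry no p. *Wnt4* entered only through day 1 control and day 4 PD169316, so its differences between these groups and day 0 carry no p either. These 3 members had to differ somewhere, and the counts and medians of members relative to day 0 are descriptions.

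Markers of the lineage and of other cell types moved over the same days. The summed intensity of the 9 neuron markers was 14652 to 16148 at day 0, 10486 to 11189 in day 1 PD169316, 8455 to 8951 in day 1 control, 7228 to 8173 in day 2 control and 6036 to 6667 in day 4 PD169316 cultures. The 8 microglial markers summed to 15597 to 20431 at day 0, 10913 to 13706 in day 1 PD169316, 11130 to 12028 in day 1 control, 14012 to 19582 in day 2 control and 7645 to 16155 in day 4 PD169316 cultures. For the 8 vascular and fibroblast markers the sums were 835 to 877 at day 0, 1026 to 1368 in day 1 PD169316, 889 to 1381 in day 1 control, 1354 to 1924 in day 2 control and 1959 to 3333 in day 4 PD169316 cultures. Neuron sums were thus lower and vascular sums higher on every later array than at day 0.

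The astrocyte sums were 44727 to 48590 at day 0 and 24106 to 32782 at day 4 of PD169316, with 42425 to 44984 in day 1 control and 23175 to 41348 in day 2 control cultures. Progenitor sums were 78153 to 80869 at day 0 and at most 61916 on the later arrays of these groups, and oligodendrocyte sums were 42562 to 45549 at day 0 and 101700 to 131410 at day 4. By single markers at day 4 relative to day 0, 4 of 9 neuron and 5 of 6 tested microglial markers were lower (27.5% of all probes). Higher were 3 of 5 tested vascular and fibroblast markers and 1 neuron marker (23.2% of all probes). The 9 astrocyte markers split, with 3 higher and 3 lower. In day 1 control cultures 4 of 9 neuron and 3 of 6 microglial markers were lower (13.3% of all probes), and 1 neuron and 3 astrocyte markers were higher (13.8%). The part of these shifts in the members' differences from day 0 was not tested.

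In day 1 PD169316 cultures, 5 of 18 members passed relative to day 0, against 31.2% of all probes: *Wnt16* and *Wif1* were higher (16.2% of all probes) and *Wnt7b*, *Axin2* and *Lrp6* lower (14.9%). Here and in the other comparisons with day 0, the counts include *Wnt7b*, *Axin2* and, at day 4, *Wnt4* where they passed. The filter favoured these differences, so the counts are descriptions, also beside the shares of all probes. Day 1 control cultures gave 4 members, against 27.1% of all probes. *Wnt16* and *Tcf7l2* were higher (13.8% of all probes) and *Wnt7b* and *Wnt5a* lower (13.3%). The count for PD169316 was 3 without day 0 1, day 0 2, day 1 PD169316 1 or day 1 PD169316 3 (24.2% to 24.8% of all probes). Without the pair of day 2 libraries both day 1 groups gave 8 members relative to day 0, against 42.0% of all probes for PD169316 and 38.2% for control.

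In day 2 control cultures 11 members passed relative to day 0, against 42.2% of all probes. There were 3 higher (20.6% of all probes), *Wnt16*, *Wnt4* and *Fzd1*, and 8 lower (21.6%), *Wnt7b*, *Wnt5a*, *Axin2*, *Fzd8*, *Lrp6*, *Dvl1*, *Dkk3* and *Ctnnb1*. The median log2 difference was -0.39 over the 18 members and -0.0006 over all probes tested. After leaving out day 0 1 the count was 6, and after leaving out day 2 control 1 or day 2 control 2 it was 7. Shares of all probes in these fits are not given, so these lower counts are no result about the members. The count was 13 without the pair of day 2 libraries (51.0% of all probes), with *Tcf7l1* and *Lrp5* added as lower.

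By day 4 of PD169316, 12 members passed relative to day 0, against 50.7% of all probes. *Wnt4* and *Fzd1* were higher (23.2% of all probes), and 10 members were lower (27.5%), the 8 of day 2 control together with *Tcf7l1* and *Lrp5*. The median difference was -0.54 over the 18 members and -0.03 over all probes. Between day 1 and day 4 of PD169316, 8 members passed, against 43.8% of all probes: *Fzd1* and *Fzd9* were higher at day 4 (19.4%), and *Wnt16*, *Tcf7l1*, *Wnt5a*, *Dvl1*, *Lrp5* and *Dkk3* lower (24.4%). This last count was 4 without day 1 PD169316 2, day 4 PD169316 1 or day 4 PD169316 2. Shares of all probes in these fits are not given, so the drop is no result about the members. On the deposited values *Dvl1* (-0.41, adjusted p = 0.14), *Lrp5* (-0.13, adjusted p = 0.58) and *Dkk3* (-0.06, adjusted p = 0.70) missed the threshold in it. *Lrp5* also missed it with no filter on dim probes (0.064) and without day 1 PD169316 2 (0.079), day 1 PD169316 3 (0.11), day 4 PD169316 1 (0.065) or day 4 PD169316 2 (0.17).

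*Wnt7b* encodes a ligand of the Wnt7 group, which signals through β-catenin to the endothelium of the brain. It was at 7.21, 7.54 and 7.14 at day 0. Day 1 PD169316 arrays were at 4.88, 5.21 and 5.09 and day 1 control arrays at 5.40, 5.67 and 5.51, and none of these 6 was detected. The signal was below detection after 1 day in both conditions.

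*Wnt7b* stayed near the background afterwards. At day 2 the values were 5.61, 5.37 and 4.75 with PD169316 and 4.98, 5.73 and 5.25 in controls, and at day 4 of PD169316 they were 5.54, 5.05 and 5.01, with 1 day 2 control array and 1 day 4 array detected. Against the lowest signal that counts as detected, *Wnt7b* was at least 3.26-fold lower in day 1 PD169316 cultures and at least 3.15-fold lower in day 1 control cultures than at day 0. Bounds of this kind are written as at least that fold throughout. The measured means were 5.32 ± 0.38 in day 2 control and 5.20 ± 0.29 in day 4 PD169316 cultures, against 7.30 ± 0.21 at day 0 (SD, n = 3 each), and with 1 of 3 arrays detected in each later group no fold is given for them. PD169316 and control cultures at day 1 were both below detection, so no fold is given between them.

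*Wnt5a* also had its highest values at day 0, at 7.17, 7.19 and 7.13. Day 1 PD169316 cultures (6.59 ± 0.27) differed from day 0 by -0.57 (adjusted p = 0.069), and day 1 control cultures (5.86 ± 0.36) were lower than day 0 by 1.30 (SE 0.23, adjusted p = 0.00074). From day 2 on the groups lay close together. Values were 5.19 (not detected), 6.03 and 6.07 with PD169316 and 5.81, 6.08 and 5.84 in controls at day 2, and 5.65, 5.81 and 6.19 at day 4 of PD169316. Day 2 control (-1.25, adjusted p = 0.00045) and day 4 PD169316 (-1.28, adjusted p = 0.00025) were below day 0, and day 4 PD169316 was below day 1 PD169316 by 0.72 (SE 0.23, adjusted p = 0.018). That last call missed the threshold on the deposited values (adjusted p = 0.34) and without day 1 PD169316 2 (0.082), day 4 PD169316 1 (0.076) or day 4 PD169316 2 (0.055).

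*Wnt16*, a ligand studied mainly in bone and joint tissue, ran the other way. It was at 5.95, 5.65 and 5.85 at day 0. One day later it was at 7.46, 7.53 and 7.35 with PD169316 and at 8.01, 7.74 and 7.78 in controls, and it was still within 7.68 to 7.87 on all 6 arrays of day 2. Relative to day 0 it was 3.10-fold in day 1 PD169316 cultures (difference 1.63, adjusted p = 0.00012), 4.07-fold in day 1 control cultures (2.02, adjusted p = 2.9e-05) and 3.79-fold in day 2 control cultures (1.92, adjusted p = 1.6e-05), each with an SE of 0.24.

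At day 4 of PD169316 *Wnt16* was at 6.73, 5.28 (not detected) and 6.31. The mean there was 6.11 ± 0.74, against 7.45 ± 0.09 at day 1 of PD169316 (difference -1.34, SE 0.24, adjusted p = 0.00041). The day 4 arrays scattered widely and overlapped those of day 0. Whether control cultures did the same cannot be read, as day 4 has PD169316 arrays alone. The *Wnt16* difference between PD169316 and control at day 1, -0.39, passed with only the day 1 arrays (adjusted p = 0.025) and without day 4 PD169316 2 (adjusted p = 0.032), but not otherwise among the settings tried.

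*Wnt4*, known in mouse for its part in kidney and gonad development, was undetected at day 0 (4.90, 5.06 and 5.30). It was at 5.63, 5.80 and 5.53 in day 1 PD169316 cultures, the last not detected, and at 6.45, 6.22 and 6.37 in day 1 control cultures. All 3 day 4 PD169316 arrays had it, at 7.07, 6.53 and 7.07. *Wnt4* was at least 2.29-fold higher in day 2 control cultures (adjusted p = 0.016) than at day 0. It was at least 2.56-fold higher in day 4 PD169316 cultures than at day 0, a description, since the probe was tested through that group. Day 1 control, the other group that admitted it, did not pass against day 0. The day 2 values are those that split across labels: the gene was detected on 2 of the 3 controls, and the call was lost without day 0 1 (adjusted p = 0.0502), day 2 control 1 (adjusted p = 0.080) or day 2 control 2 (0.078), and was stronger without the pair of day 2 libraries (5.3e-08).

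*Wnt10b*, which in mouse favours bone over fat formation, was the steadiest ligand. Its 18 values lay between 6.23 and 6.81, it was detected on every array, and it passed in none of the comparisons.

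**Figure D3:**
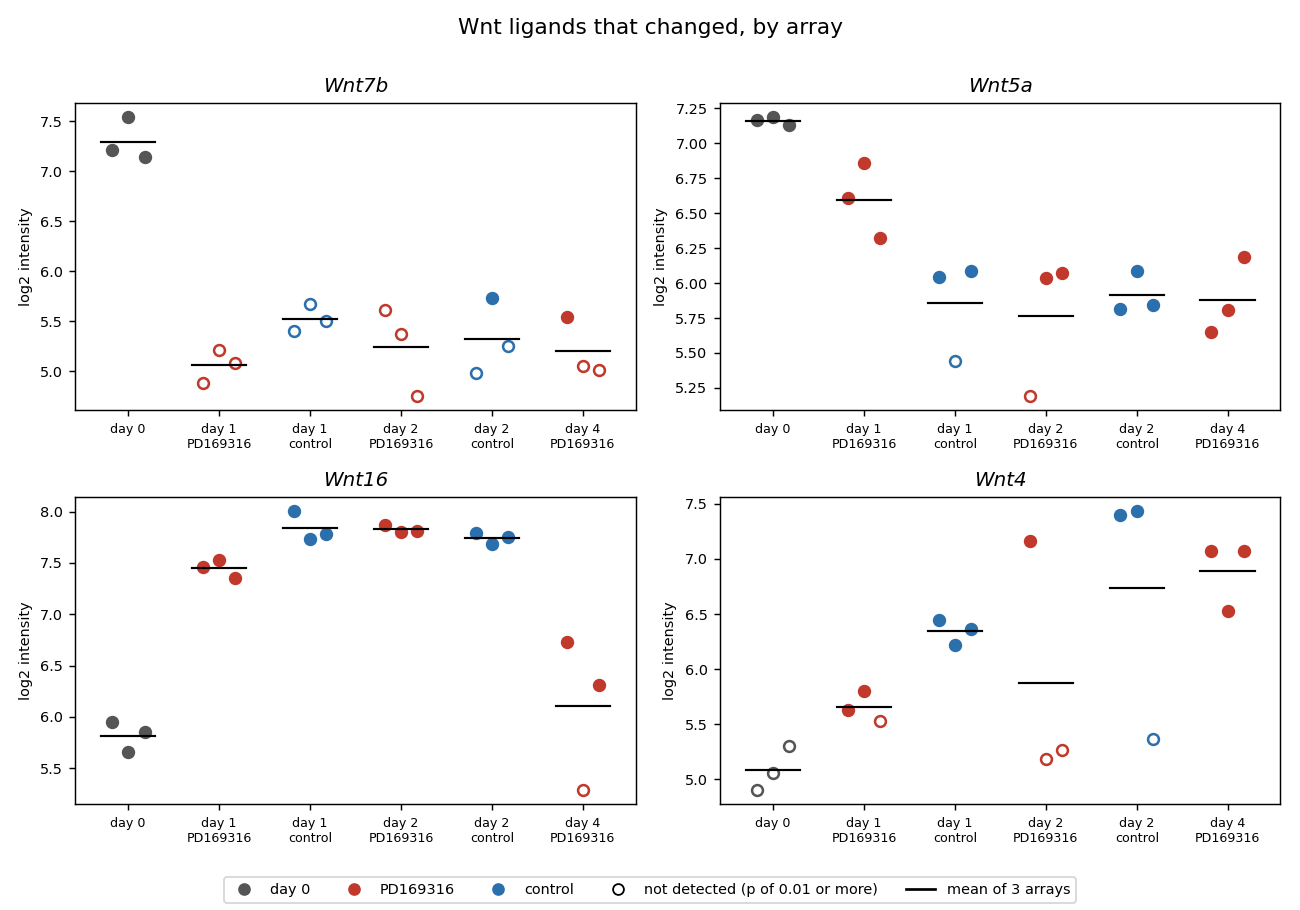
Log2 intensity of *Wnt7b*, *Wnt5a*, *Wnt16* and *Wnt4* (y axes, scaled per gene) on each of the 18 arrays, by group (x axis: day 0, then PD169316 and control of each day). Open points were not detected and bars are means of 3 arrays. *Wnt7b* fell below detection by day 1, *Wnt16* stood at 7.35 to 8.01 at days 1 and 2, and the day 2 points of *Wnt4* divide into 5.18 to 5.37 and 7.16 to 7.43 within both labels.

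The receptor genes *Fzd1* and *Fzd8* moved in opposite directions. *Fzd1* was at 7.81, 7.89 and 8.09 at day 0, at 8.26, 8.44 and 8.11 in day 2 control cultures and at 8.45, 8.51 and 8.43 at day 4 of PD169316, and the later values were all above day 0. The difference from day 0 was 0.34 for day 2 control (SE 0.10, adjusted p = 0.010) and 0.53 for day 4 PD169316 (SE 0.10, adjusted p = 0.00030). Day 4 was also above day 1 of PD169316, by 0.54 (adjusted p = 0.00042). On the deposited values, where the median of all probes was itself lower than at day 0, the day 2 difference became -0.06 (adjusted p = 0.73) and the day 4 call was lost (adjusted p = 0.12), so the rise of *Fzd1* is relative to the other probes. The day 2 call also missed the threshold without day 0 1 (0.052) or day 2 control 2 (0.061) and with only the arrays compared (0.062).

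*Fzd8* fell relative to day 0, where it was at 11.01, 10.84 and 10.82. Its difference was -0.60 in day 2 control cultures (SE 0.20, adjusted p = 0.029) and -0.64 at day 4 of PD169316 (10.37, 9.92 and 10.47, adjusted p = 0.017). The day 2 call was lost on leaving out any of 5 arrays, day 0 1 (adjusted p = 0.090), day 0 2 (0.054), day 0 3 (0.051), day 2 control 1 (0.11) and day 2 control 2 (0.12), and with no filter on dim probes (0.051), and the day 4 call without day 0 1 (0.059) or day 4 PD169316 2 (0.092). *Fzd9* stayed between 6.66 and 7.47 and passed once, as higher at day 4 than at day 1 of PD169316 (7.28, 7.47 and 7.14 against 6.89, 6.88 and 7.05, difference 0.36, adjusted p = 0.037). That call was lost without day 1 PD169316 1 (0.099), day 1 PD169316 2 (0.11), day 4 PD169316 1 (0.070) or day 4 PD169316 2 (0.15), and with no filter (0.068).

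Both co-receptor genes were lower late in the series. *Lrp6* was at 7.74, 7.68 and 7.53 at day 0, at 7.19, 7.31 and 7.27 in day 1 PD169316 cultures, at 6.93, 7.08 and 7.39 in day 2 control cultures and at 7.21, 7.11 and 7.11 at day 4 of PD169316. None of these later arrays reached the day 0 values. Differences from day 0 were -0.39 (adjusted p = 0.027), -0.52 (adjusted p = 0.0041) and -0.51 (adjusted p = 0.0035), with an SE of 0.13 each. The day 1 PD169316 call missed the threshold without day 0 1 (0.092), day 0 2 (0.073), day 1 PD169316 1 (0.083) or day 1 PD169316 3 (0.060). *Lrp5* was at 6.44, 6.07 and 6.70 at day 4 of PD169316, against 7.11, 6.77 and 7.21 at day 0 (difference -0.63, SE 0.20, adjusted p = 0.015), a call lost without day 0 3 (0.063) or day 4 PD169316 2 (0.085).

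Among the secreted inhibitors, *Dkk3*, the divergent member of the Dickkopf family, fell by small amounts. It was at 6.33, 6.24 and 6.35 at day 0, at 5.86, 5.91 and 5.93 in day 2 control cultures (difference -0.41, SE 0.11, adjusted p = 0.0068) and at 5.92, 5.59 and 5.57 at day 4 of PD169316 (-0.61, adjusted p = 0.00024). Its replicates were close and the groups did not overlap day 0. *Wif1*, whose protein binds Wnt ligands directly, passed once, as higher in day 1 PD169316 cultures (6.17, 6.45 and 6.19) than at day 0 (5.91, 5.68 and 5.88; difference 0.45, SE 0.16, adjusted p = 0.044). The *Wif1* call was lost on leaving out any of 13 arrays, at adjusted p of up to 0.16, with no filter on dim probes (0.077) and with no background correction (0.065), and its direction turned on the deposited values (-0.01, adjusted p = 0.96).

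Of the cytoplasmic components, *Dvl1* and *Ctnnb1* fell and *Axin1* passed in no comparison. *Dvl1*, a Dishevelled gene, was at 9.55, 9.55 and 9.46 at day 0, at 9.01, 8.92 and 9.21 in day 2 control cultures (difference -0.48, SE 0.16, adjusted p = 0.025) and at 8.74, 8.65 and 8.80 at day 4 of PD169316 (-0.79, adjusted p = 0.00075). The day 2 call for *Dvl1* was lost without day 0 1 (0.067), day 0 2 (0.065), day 2 control 1 (0.072) or day 2 control 2 (0.092). *Ctnnb1*, the gene of β-catenin itself, stood at 11.86, 11.78 and 11.77 at day 0, at 11.42, 11.19 and 11.69 in day 2 control cultures (-0.37, SE 0.13, adjusted p = 0.035) and at 11.39, 10.94 and 11.33 at day 4 of PD169316 (-0.58, adjusted p = 0.0018). The day 2 call for β-catenin was lost on leaving out any day 0 array or day 2 control 1 or 2, at adjusted p of 0.063 to 0.17, with no filter on dim probes (0.062) and with only the arrays compared (0.067). β-Catenin is regulated mainly as a protein, which arrays do not measure.

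*Axin2* encodes a scaffold of the destruction complex that is also a classical transcriptional target of β-catenin, and is therefore widely read as a reporter of the pathway. It was at 5.92, 5.65 and 5.58 at day 0, and detected on all 3 of these arrays. In later groups it was at 5.16, 4.99 and 4.96 in day 1 PD169316 cultures, at 5.65, 5.26 and 5.25 in day 1 control cultures, at 4.82, 5.52 and 5.26 in day 2 PD169316 cultures, at 4.66, 4.72 and 5.13 in day 2 control cultures and at 4.93, 4.98 and 4.81 at day 4 of PD169316. Among these 15 later arrays only day 1 control 1 and day 2 PD169316 2 had a detected signal.

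*Axin2* was thus low throughout and at the detection limit after day 0. Relative to day 0 it was at least 1.09-fold lower in day 1 PD169316 cultures, at least 1.10-fold lower in day 2 control cultures and at least 1.13-fold lower at day 4 of PD169316. At day 1 the PD169316 and control groups did not overlap, but the difference did not pass (adjusted p = 0.21).

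TCF/LEF factors bind short DNA motifs, and the members' promoters were searched for them. RefSeq sequence (GRCr8) was at hand for 31 of the 40 member genes, 12 of them tested. The 250 bases before the start were searched on both strands for the TCF/LEF core motifs CTTTGAA or CTTTGAT, and for the variants CTTTGTA or CTTTGTT, of which no position on a strand can match more than 1. A match occurred in 14.9% of 33469 promoters and in 5 of the 31 members, *Axin2*, *Dkk1*, *Dkkl1*, *Sfrp5* and *Wnt8a*. *Axin2* was the 1 of the 12 tested members with a match. The sequences below are those of *Axin2*, at chr10:94398535-94398784, with its 2 matches in capitals beginning at -232 and -132 relative to the start, and of the members that passed for PD169316 at day 1, *Tcf7l2* at chr1:264791085-264791334 and *Wnt5a* at chr16:3703415-3703664, which have no match. All 3 are on the plus strand and read 5′ to 3′.
Axin2: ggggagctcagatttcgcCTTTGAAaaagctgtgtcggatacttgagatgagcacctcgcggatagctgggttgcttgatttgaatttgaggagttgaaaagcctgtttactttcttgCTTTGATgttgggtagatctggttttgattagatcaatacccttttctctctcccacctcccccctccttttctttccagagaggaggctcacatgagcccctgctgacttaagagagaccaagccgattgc
Tcf7l2: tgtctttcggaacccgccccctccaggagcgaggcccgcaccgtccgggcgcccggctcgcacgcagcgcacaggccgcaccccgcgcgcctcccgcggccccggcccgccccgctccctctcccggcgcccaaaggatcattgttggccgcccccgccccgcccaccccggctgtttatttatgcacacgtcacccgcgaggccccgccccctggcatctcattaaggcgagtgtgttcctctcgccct
Wnt5a: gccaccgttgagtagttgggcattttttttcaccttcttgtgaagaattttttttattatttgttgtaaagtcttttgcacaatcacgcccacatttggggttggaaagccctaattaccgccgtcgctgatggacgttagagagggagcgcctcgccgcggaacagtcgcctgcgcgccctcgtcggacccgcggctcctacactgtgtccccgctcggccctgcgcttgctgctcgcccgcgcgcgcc
These letters are a description of the window, and no match in it says nothing of other sites.

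The nuclear factor *Tcf7l1*, a TCF family member best known as a repressor, had its lowest group mean at day 4. It was at 7.59, 7.49 and 7.57 at day 0, at 7.67, 7.62 and 7.46 in day 1 PD169316 cultures and at 7.28, 7.10 and 7.44 in day 1 control cultures, and the day 1 groups did not overlap (difference 0.31, adjusted p = 0.48). At day 4 of PD169316 it was at 6.88, 6.85 and 6.83, below every array of day 0 and day 1. The difference of day 4 was -0.69 from day 0 (SE 0.26, adjusted p = 0.035) and -0.73 from day 1 PD169316 (SE 0.26, adjusted p = 0.032). The SE far exceeds the SDs of these groups (0.03, 0.05 and 0.11) since the day 2 arrays enter it, and without the day 2 pair the adjusted p was 1.0e-05 and 9.8e-06. Both calls were lost on leaving out most single arrays of the groups compared, at adjusted p of 0.060 to 0.084: this held for all 6 of day 4 and day 0, and for day 1 PD169316 1 and 2 and all of day 4 in the second comparison. With no filter on dim probes they gave 0.062 and 0.057, and on the deposited values the second gave 0.33.

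**Figure D4:**
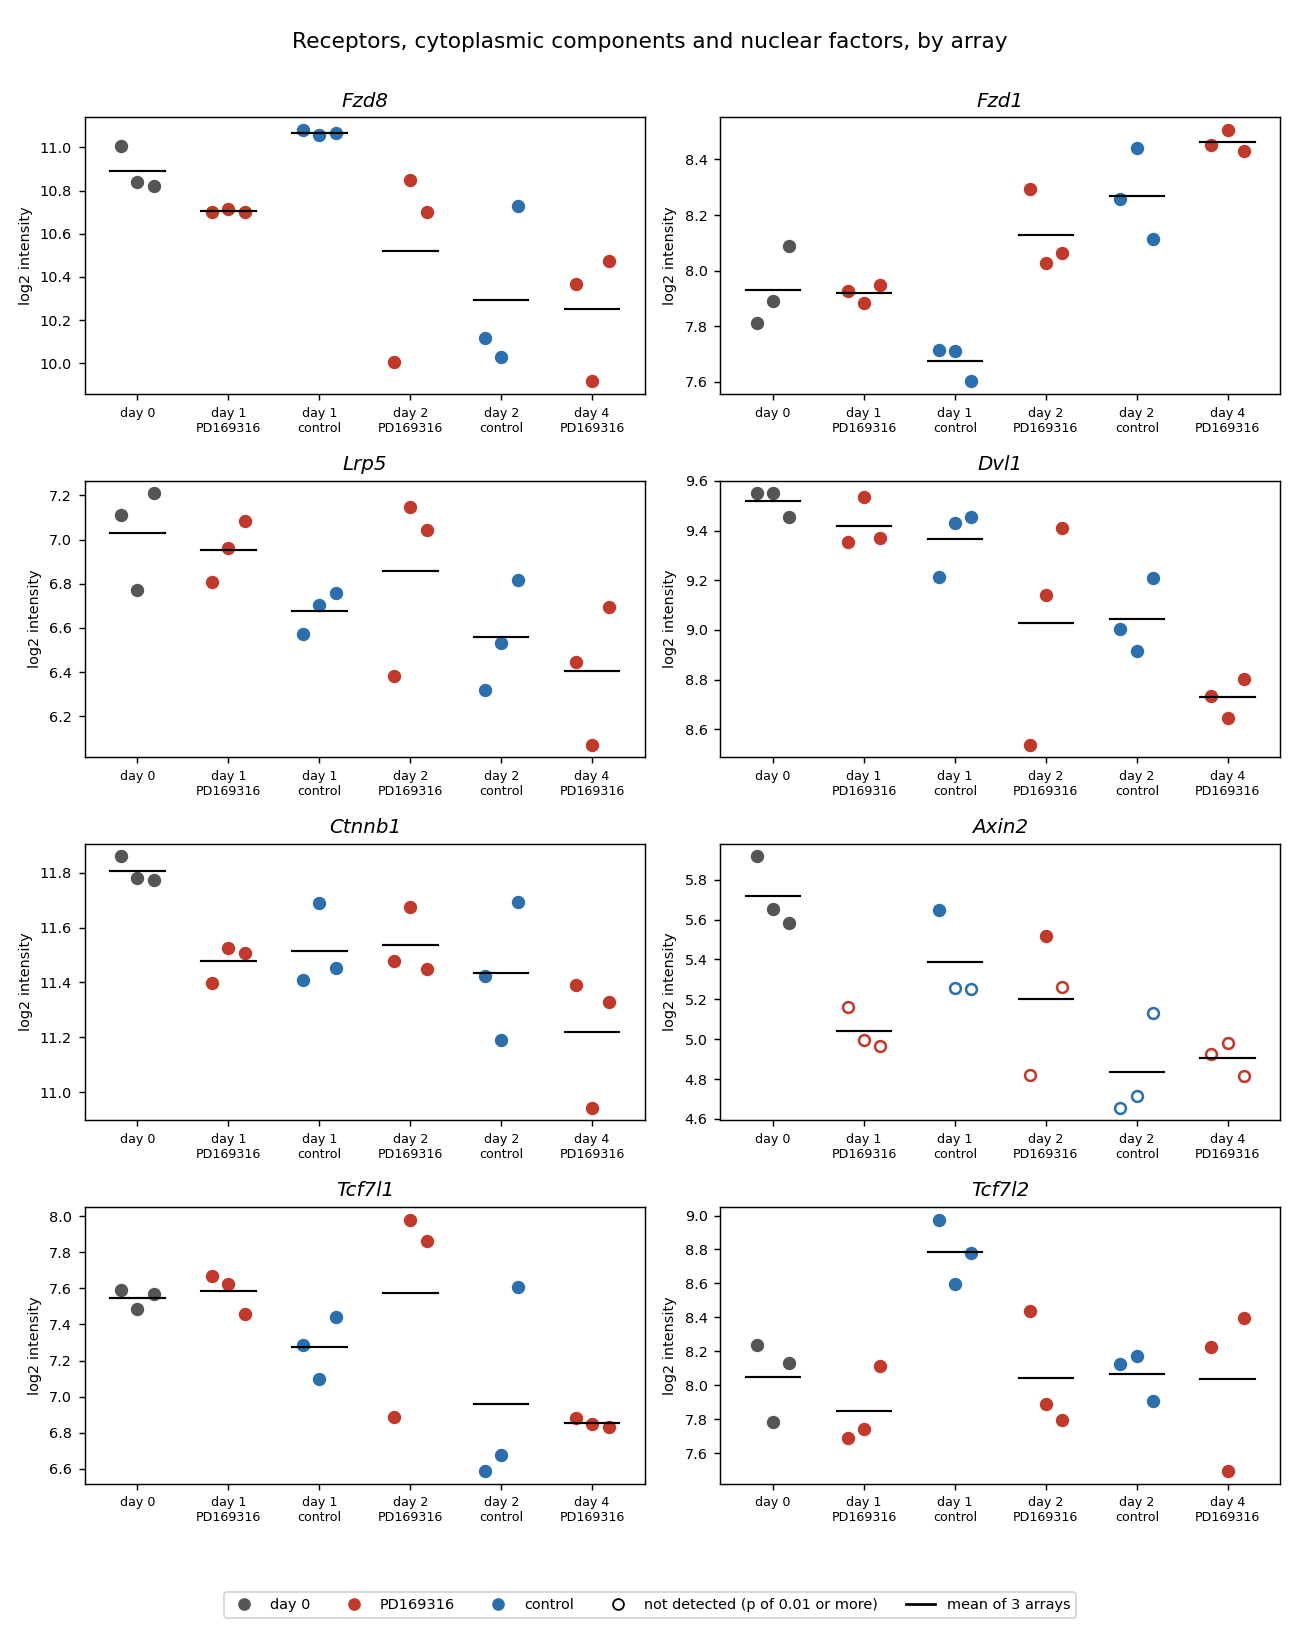
Log2 intensity of *Fzd8*, *Fzd1*, *Lrp5*, *Dvl1*, *Ctnnb1*, *Axin2*, *Tcf7l1* and *Tcf7l2* (y axes, scaled per gene) on each of the 18 arrays, by group (x axis: day 0, then PD169316 and control of each day). Open points were not detected and bars are means of 3 arrays. *Tcf7l2* was above 8.5 on the 3 day 1 control arrays alone, and *Axin2* was detected on all arrays of day 0 and on 2 later arrays.

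Other genes of the pathway were counted in lists that are not part of the member rule. Of 25 genes for Wnt secretion and receptor partners 6 were tested, and 1 passed for PD169316 at day 1, as higher (6.59% of all probes): *Gpc4*, a glypican of the cell surface, at 6.64 ± 0.04 with PD169316 and 6.24 ± 0.08 in controls (SD, n = 3 each; difference 0.40, adjusted p = 0.019). None of 21 tested partners of the destruction complex and of β-catenin passed at day 1, against 11.1% of all probes. In day 2 control cultures relative to day 0, 3 of these 21 were higher (20.6% of all probes) and 5 lower (21.6%), and these counts are no result about the list. Its genes with the largest changes are given as examples. *Cxxc4*, an inhibitor of Dishevelled, was lower by 2.18 (SE 0.26, adjusted p = 1.1e-05) and the co-repressor genes *Tle2* and *Tle3* by 0.97 and 0.67. *Ctnnbip1*, whose protein blocks the binding of β-catenin to TCF factors, was higher by 1.61 (SE 0.18, adjusted p = 7.4e-06).

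In the planar polarity and calcium branches 11 of 18 genes were tested and 2 passed for PD169316 at day 1, both lower (4.48% of all probes). *Prkca*, a protein kinase C gene, was at 7.36 ± 0.08 with PD169316 and 8.11 ± 0.04 in controls (difference -0.75, adjusted p = 0.0081), and the GTPase gene *Rac1* at 12.42 ± 0.07 with PD169316 and 12.73 ± 0.08 in controls (-0.31, adjusted p = 0.034). Of 22 target genes described in other tissues 8 were tested, and 1 passed as higher (6.59% of all probes): *Cd44*, an adhesion receptor, was at 9.29 ± 0.09 with PD169316 and 8.36 ± 0.02 in controls (0.93, SE 0.13, adjusted p = 0.00029). The median difference at day 1 was -0.10 over the 6 secretion and receptor genes, -0.12 over the 21 partners, 0.08 over the 11 polarity genes and 0.30 over the 8 targets, against -0.0045 over all probes tested. Like the members, these lists had 0 genes that passed for PD169316 at day 2.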

How the data were processed

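RNA of 18 rat OLP samples was measured on Illumina RatRef-12 BeadChips. The deposited intensity values are the authors' mean bead signals, on a linear scale and as scanned, with neither background subtraction nor normalization; a second deposited table equals them for all 405414 values. The authors deposited a detection p-value from Illumina's software for each probe and array. The study's methods name an empirical Bayes test in FlexArray with thresholds of 1.25-fold and p under 0.05, and a normalization is not given in the sources used here.

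Here neqc of limma 3.58.1 (R 4.3.3) used these p-values for background correction and then quantile normalization, giving log2 values (offset 16). Group means over 18 arrays (12 residual, 3.16 prior degrees of freedom) were fitted with limma, and every adjusted p is Benjamini-Hochberg over the 10574 probes kept. Gene symbols come from the array annotation, which gives 13793 probes 1 symbol and 8730 none, and all 41 member symbols are those of RefSeq. Intervals are at 95% confidence. A bound for a group with no detected array was set against the higher of its own value and the lowest detected signal, per array.

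All members were accounted for. Those with values by array passed for PD169316, or were among the 10 with the largest other differences, or were *Axin2*, *Ctnnb1*, *Lef1* or *Tcf7l2*, and other members that passed were added afterwards. Up to 4 genes of each other list were named by size of change. Members, lists and alternatives were chosen with earlier results of these data known. Results were recomputed from log2 of the raw deposited values, without background correction, with 75th percentile scaling, with no filter or detection on all 18 arrays, with an offset of 50, with the compared groups alone, with replicate numbers as a block, by the methods' criterion, and without the day 2 pair, all day 2 arrays or each array in turn. The procedure was tested on simulated data. Figures used Python 3.11.15, pandas 2.3.3 and matplotlib 3.10.9.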

Additional observations from a re-analysis of the deposited data

How the results depend on the processing

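Of the 42 single-gene results that passed, 1086 of 1188 values under the alternatives stayed past the threshold in the same direction, 100 missed it and 2 turned: *Fzd1* in day 2 control cultures (-0.058) and *Wif1* in day 1 PD169316 cultures (-0.0076) on the deposited values, against day 0. The 42 include the differences of *Wnt7b* and *Axin2* from day 0 and that of *Wnt4* between day 4 PD169316 and day 0. The filter favoured these, so the tally is partly a product of the filter. On those values the median of all probes shifted by -0.27, -0.25, -0.28 and -0.12 against day 0 for day 1 PD169316, day 1 control, day 2 control and day 4 PD169316 and by 0.135 for day 4 against day 1 of PD169316. The share of passing probes that were higher was then 5.84% (52.0% after normalization), 4.88% (50.8%), 9.84% (48.8%), 33.1% (45.7%) and 85.4% (44.3%), and for the change in the inhibitor effect from day 1 to day 2 it was 72.2% (39.6%).

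Percentages in brackets are the share of all probes that passed in the same setting. For PD169316 at day 1, 1 member passed on the deposited values (2.23%), with no filter on dim probes (4.06%), with detection on all 18 arrays (12 members tested, 13%) and with the replicate number as a block (11.7%). The count was 8 with only the arrays compared (21.4%) or without the day 2 pair (23.3%), 6 without all day 2 arrays (20.8%), and 0 to 2 on leaving out 1 array (6.86% to 16.5%). At day 2 the count was 2 by the methods' criterion (2.28%), 6 without the day 2 pair (23.6%) and 0 on leaving out any 1 array (at most 0.0757%). For the difference between the days it was 4 (15%), 5 (15.4%) and 0 to 1 (2.52% to 5.66%). Against day 0, day 1 PD169316 gave 8 on the deposited values (34.8%), 1 with detection on all 18 arrays (34.5%), 8 with only the arrays compared (41.2%), 8 without the day 2 pair (42%), 8 without all day 2 arrays (39.9%) and 3 to 6 on leaving out 1 array (23.8% to 36.8%). Day 1 control gave 7 (28.7%), 1 (30.6%), 7 (33.1%), 8 (38.2%), 7 (35.9%) and 3 to 6 (17.8% to 32.9%) in the same order. Day 2 control gave 6 with detection on all 18 arrays and 6 to 13 on leaving out 1 array, and day 4 PD169316 gave 10 to 13. Day 4 against day 1 of PD169316 gave 4 on the deposited values, 5 with no filter and 4 to 10 on leaving out 1 array. For these last 3 comparisons the share of all probes was 42.2%, 50.7% and 43.8% in the main fit, and is not given by setting. The main-fit shares cannot be set against counts from the other settings. Shares of all probes moved with the settings where given, so the counts are no result about the members. The cause was not tested, except that fewer members enter where detection on all arrays is required.

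Differences that had not passed and changed sign were small. For PD169316 at day 1, leaving out 1 array gave -0.24 to 0.080 for *Axin1*, -0.091 to 0.048 for *Ctnnb1*, -0.022 to 0.099 for *Dvl1* and -0.011 to 0.089 for *Wnt10b*. At day 2 it gave -0.22 to 0.095 for *Tcf7l2* and -0.30 to 0.14 for *Wnt5a*, the deposited values gave 0.045 for *Tcf7l2*, and leaving out the day 2 pair gave 0.10 for *Wnt5a*.

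Whether the replicate numbers pair the samples could not be settled: 8 of 45 same-numbered pairs had deviations correlated above 0.1 (range -0.534 to 0.558). Both extremes were between a day 2 control and a day 2 PD169316 array, whose group means include the libraries that stood apart. The check cannot exclude a shared preparation, which the labels do not state. With the number as a block, *Wnt5a* (PD169316 at day 1) and *Wif1* (day 1 PD169316 against day 0) missed the threshold, at an adjusted p of 0.053 each. *Axin2*, *Wnt4* and *Wnt7b* lay at the detection limit in several groups, where bead signal over background sets the precision.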
